A study of Mus musculus with 8 samples.

Results

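The 10 genes described here encode the sensors, adaptors, transcription factors and receptor chains of type I interferon signalling. They were taken by symbol or synonym (Ddx58, Ifih1, Dhx58, Mavs, Irf3, Irf7, Irf9, Ifnar1, Ifnar2 and Tmem173, listed by RefSeq as Sting1) from an array table of 30702 named genes. All 10 were measured, each by a single probe set annotated to that gene alone, and all 10 lay above the dim limit of 4.89 (the median log2 level of all transcript clusters) on every array. RIG-I, MDA5 and LGP2, encoded by Ddx58, Ifih1 and Dhx58, are cytosolic helicases that bind viral double-stranded RNA, and the mitochondrial adaptor MAVS relays the signal of RIG-I and MDA5 to kinases that activate the transcription factors IRF3 and IRF7. Type I interferon made in response binds the receptor chains IFNAR1 and IFNAR2, and a complex that contains IRF9 then switches on antiviral genes, among them Irf7 and the genes of the sensors themselves. STING, encoded by Tmem173, is the adaptor of the cytosolic DNA sensor cGAS and feeds into the same kinases.

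RNA came from colon tissue of 8 Rag1-/- mice on the C57BL/6 background. The inflamed group held 3 mice that had received naïve T cells, which expand in such hosts and cause colitis, and were killed with severe disease. The control group held 5 mice that had received regulatory T cells (Treg) and had non-inflamed colons. Both groups lack Rag1 and so have no mature T or B cells of their own. They were injected when 10 weeks old and killed 2 to 4 months afterwards, and the labels put their age at 4 to 5 months, which these times cover only in part. The sources differ on whether the sample was distal colon or a strip of the whole colon. Each sample has 1 array, taken as 1 mouse.

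Values are log2 intensities after RMA, an array normalization whose summary compresses low signals. Array medians ran from 4.81 to 4.91. Pearson's r over the named genes was 0.988 to 0.995 among inflamed arrays, 0.995 to 0.998 among control arrays and 0.979 to 0.985 between the groups. Xist, a transcript of the female X chromosome, was high on 1 inflamed and 3 control arrays and low on 2 inflamed and 2 control arrays, so both sexes were present in both groups. The epithelial marker Epcam was at 12.20 to 12.28 on inflamed arrays and at 12.19 to 12.29 on control arrays, as the labelled tissue calls for. Differences are inflamed minus control means with their standard error (SE) after ±, and adjusted p is that of limma's test with Benjamini-Hochberg adjustment over all named genes. A gene is said to have risen or fallen where adjusted p is under 0.05. The exact permutation p beside some values is two-sided over all 56 ways of dividing the arrays into 3 and 5, and cannot go below 0.0179.

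In inflamed colon the RNA sensor genes, Mavs and Irf7 were lower, while Ifnar2 and Tmem173 were higher. Of the 10 genes 5 fell, where 5.04% of all named genes did, and 2 rose, where 8.06% did. In either direction 7 of 10 changed, against 13.1% of all named genes. Many named genes are dim and seldom pass. With genes whose mean was under 5.68 in both groups left out, 4665 of 15815 passed, 2865 higher and 1800 lower. All 10 genes were kept in that setting, with 3 higher and 6 lower. The inflamed and control arrays did not overlap for 9 of the 10, against 21.2% of all named genes. The median difference was -0.43 over the 10 genes and -0.013 over all named genes. Tmem173 and Irf7 changed at least 2-fold. The direction was the same for all 10 genes within the 4 arrays low in Xist and within the 4 arrays high in it, although the second set holds only 1 inflamed mouse.

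**Figure D1:**
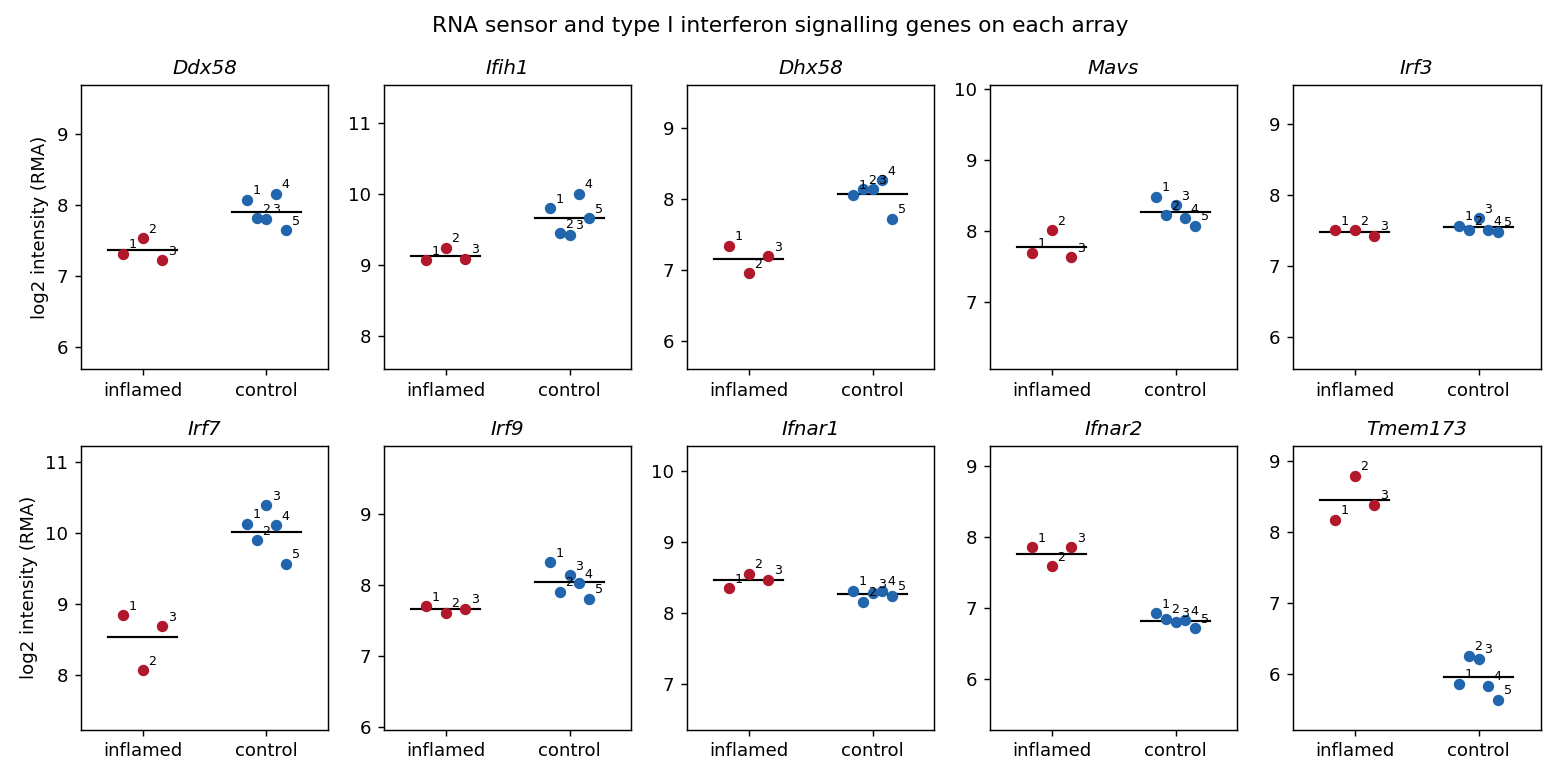
Log2 intensity of each of the 10 genes (vertical axis, the same span in every panel) on the 3 inflamed arrays (red, left) and the 5 control arrays (blue, right), with replicate numbers beside the points and a line at each group mean. The widest gap between groups is that of Tmem173, where inflamed arrays lie at 8.18 to 8.80 and control arrays at 5.64 to 6.26, and only the Irf3 points overlap.

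The 3 helicase sensors all fell in inflamed colon. Dhx58, whose product LGP2 tunes the other sensors and has no signalling domain of its own, was at 7.34, 6.95 and 7.19 on inflamed replicates 1 to 3 and at 8.06, 8.14, 8.14, 8.26 and 7.72 on control replicates 1 to 5. Its inflamed mean of 7.16 ± 0.20 (SD, n = 3) stood against a control mean of 8.06 ± 0.21 (SD, n = 5), a fall of 0.90 ± 0.14 (adjusted p = 0.00605, exact permutation p = 0.0179). Every inflamed array lay at least 0.37 below every control array, with inflamed replicate 2 lowest and control replicate 5 nearest to the inflamed group.

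Ddx58, which encodes RIG-I, was at 7.32, 7.54 and 7.23 on the inflamed arrays and at 8.08, 7.82, 7.81, 8.16 and 7.65 on the control arrays. It fell by 0.54 ± 0.13 to 0.69 times the control level (adjusted p = 0.0372, exact permutation p = 0.0179), and the gap between inflamed replicate 2 and control replicate 5 was 0.11. Ifih1, which encodes MDA5, was at 9.07, 9.25 and 9.09 on the inflamed arrays and at 9.80, 9.45, 9.43, 10.01 and 9.66 on the control arrays. It fell by 0.54 ± 0.14, also to 0.69 times the control level (adjusted p = 0.0453, exact permutation p = 0.0357), with a gap of 0.18 between the groups. Control replicates 1 and 4 were the highest for both genes, and inflamed replicate 2 was the inflamed array closest to the controls for both.

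The Ddx58 and Ifih1 calls are near the threshold. Without inflamed replicate 1 or 3 or control replicate 1, 2, 3 or 4, Ddx58 no longer passed (adjusted p = 0.063 to 0.118). Ifih1 passed only without control replicate 3 and missed the threshold without any 1 of the other 7 arrays (adjusted p = 0.0504 to 0.14). The direction held in all 17 alternatives for both genes, at -0.62 to -0.47 for Ddx58 and -0.62 to -0.43 for Ifih1.

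Interferon response elements are the letters that the IRF9 complex and other IRFs bind in the promoters of interferon-stimulated genes. RefSeq's promoter windows (GRCm38.p6, 250 bases before the gene start to 50 after it) covered 8 of the 10 genes, without Dhx58 and Tmem173. The core GAAANNGAAA, searched on both strands, occurred in the windows of Ddx58 and Ifih1 and in none of the other 6 genes, against 3.99% of the 27025 genes with a window. Both are shown because they are sensor genes that fell and that hold this core, with the match in capitals. The Ddx58 window is chr4:40239776-40240075 on the minus strand, with the match starting at base 3 of the gene and lying on the opposite strand. That of Ifih1 is chr2:62646206-62646505, also on the minus strand, with the match starting at base 33 of the gene.
Ddx58: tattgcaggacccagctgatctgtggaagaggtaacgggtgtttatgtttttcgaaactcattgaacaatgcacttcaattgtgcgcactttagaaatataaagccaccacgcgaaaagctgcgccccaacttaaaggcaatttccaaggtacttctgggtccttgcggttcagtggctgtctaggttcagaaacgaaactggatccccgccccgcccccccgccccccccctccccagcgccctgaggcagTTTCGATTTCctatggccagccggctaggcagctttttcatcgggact
Ifih1: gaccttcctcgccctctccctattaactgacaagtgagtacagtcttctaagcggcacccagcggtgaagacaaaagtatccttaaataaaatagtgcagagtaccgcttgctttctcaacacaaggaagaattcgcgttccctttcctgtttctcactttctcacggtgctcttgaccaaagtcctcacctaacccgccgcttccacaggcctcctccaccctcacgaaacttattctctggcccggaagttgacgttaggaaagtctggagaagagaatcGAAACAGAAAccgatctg
A match of letters is a description and shows no binding. Among measured genes with a window, the core was in 11 of 21 antiviral genes and in 8 of 15 genes of the interferon-gamma list described below, lists whose called members moved in opposite directions.

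The 2 adaptors moved apart, with Mavs lower and Tmem173 higher. Mavs was at 7.69, 8.01 and 7.63 on the inflamed arrays and at 8.48, 8.22, 8.36, 8.18 and 8.07 on the control arrays. It fell by 0.48 ± 0.12 to 0.715 times the control level (adjusted p = 0.036, exact permutation p = 0.0179), with inflamed replicate 2 only 0.07 below control replicate 5. Without inflamed replicate 1 or 3 or control replicate 1, 2, 3 or 4 the Mavs call ended (adjusted p = 0.0594 to 0.123).

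Tmem173 was at 8.18, 8.80 and 8.39 on the inflamed arrays and at 5.87, 6.26, 6.22, 5.84 and 5.64 on the control arrays. The group means were 8.46 ± 0.32 in inflamed colon (SD, n = 3) and 5.97 ± 0.27 in control colon (SD, n = 5), a 5.62-fold rise of 2.49 ± 0.19 (adjusted p = 0.000514, exact permutation p = 0.0179). The lowest inflamed array stood 1.92 above the highest control array, and 56 of the 30702 named genes differed further upward. The difference was 2.43 within the arrays low in Xist and 2.49 within those high in it. The call held without each of the 8 arrays in turn, at differences of 2.31 to 2.63 over all 17 alternatives.

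Of the 3 interferon regulatory factors, Irf7 fell while Irf3 and Irf9 did not pass the test. Irf7, the factor that amplifies interferon-alpha production and is itself interferon-stimulated, was at 8.84, 8.07 and 8.69 on the inflamed arrays and at 10.13, 9.90, 10.39, 10.11 and 9.57 on the control arrays. The inflamed mean of 8.53 ± 0.41 (SD, n = 3) against the control mean of 10.02 ± 0.31 (SD, n = 5) made a fall of 1.49 ± 0.23, to 0.357 times the control level (adjusted p = 0.00673, exact permutation p = 0.0179). As for Dhx58, inflamed replicate 2 was lowest of all arrays and control replicate 5 lowest of the controls. Of all named genes 119 differed further downward.

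Irf9, the DNA-binding part of the complex that answers type I interferon, was at 7.70, 7.61 and 7.67 on the inflamed arrays and at 8.32, 7.91, 8.14, 8.03 and 7.81 on the control arrays. All inflamed arrays were below all control arrays, by 0.11 or more, and the difference of -0.38 ± 0.11 (95% interval -0.64 to -0.12) did not pass over all genes (adjusted p = 0.0637, exact permutation p = 0.0357). Without control replicate 5, the control nearest to the inflamed arrays, it passed at -0.44 (adjusted p = 0.0418).

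Irf3, which is made constitutively and is activated by phosphorylation, was at 7.50, 7.50 and 7.42 on the inflamed arrays and at 7.56, 7.50, 7.67, 7.50 and 7.48 on the control arrays. Its difference was -0.067 ± 0.050 (95% interval -0.18 to 0.05, adjusted p = 0.411, exact permutation p = 0.268), and the groups overlapped. The value was identical to the deposited digits on 4 of the 8 arrays, 2 inflamed and 2 control. Such repeats occur for 24.6% of all named genes in this table, so the spread of Irf3 is that of few distinct values.

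**Figure D2:**
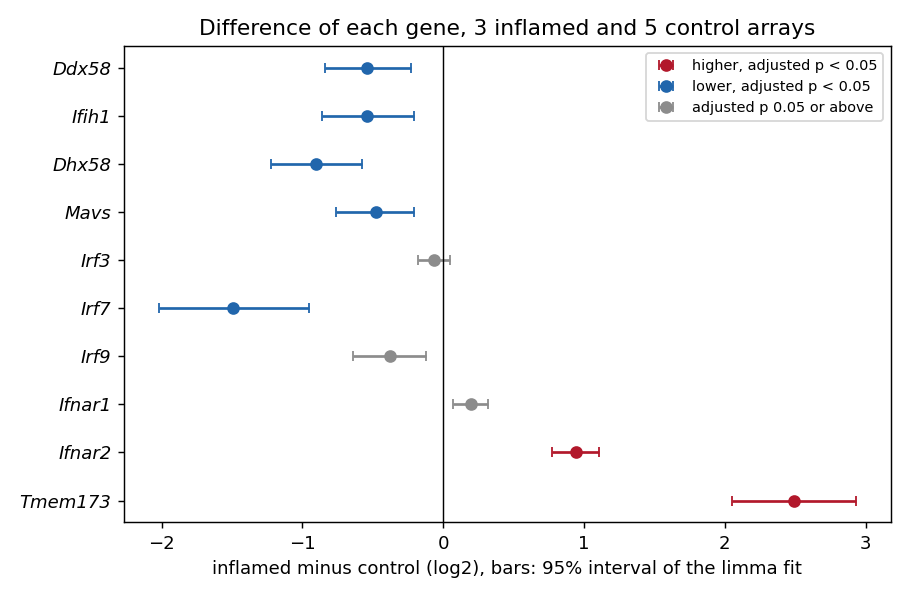
Difference of each gene (horizontal axis, inflamed minus control, log2), with bars for the 95% interval from limma, in the order sensors, adaptor, factors, receptor chains and Tmem173. Irf7 (-1.49) and Tmem173 (2.49) mark the ends of the range, and the grey points of Irf3, Irf9 and Ifnar1 have adjusted p of 0.411, 0.0637 and 0.0585.

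The receptor chains were both higher in inflamed colon in every array, but only Ifnar2 passed the test. Ifnar2, the chain that binds type I interferon with high affinity, was at 7.86, 7.59 and 7.86 on the inflamed arrays and at 6.93, 6.85, 6.80, 6.83 and 6.72 on the control arrays. It rose 1.92-fold, by 0.94 ± 0.074 (adjusted p = 0.000545, exact permutation p = 0.0179), with a gap of 0.67 between inflamed replicate 2 and control replicate 1. The call held without each array in turn.

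Ifnar1, the chain that completes the signalling receptor, was at 8.35, 8.55 and 8.47 on the inflamed arrays and at 8.31, 8.16, 8.28, 8.31 and 8.24 on the control arrays. Its difference of 0.20 ± 0.055 (95% interval 0.07 to 0.32) did not pass over all genes (adjusted p = 0.0585, exact permutation p = 0.0179), and the gap between the groups was 0.04. Without inflamed replicate 1, the lowest of the inflamed arrays, it passed at 0.25 (adjusted p = 0.0378). The core TTCNNNGAA of gamma-activated sites, elements of interferon-gamma response promoters, was found in the windows of both receptor genes and in none of the other 6, against 9.55% of genes with a window. Among measured genes with a window, this core was in 6 of 21 antiviral genes, whose called members fell. It was in 5 of 15 genes of the interferon-gamma list, whose called members rose. The Ifnar2 window, chr16:91372533-91372832 on the plus strand, is shown because Ifnar2 is the chain that rose, with the match in capitals starting at base -214 from the gene start.
Ifnar2: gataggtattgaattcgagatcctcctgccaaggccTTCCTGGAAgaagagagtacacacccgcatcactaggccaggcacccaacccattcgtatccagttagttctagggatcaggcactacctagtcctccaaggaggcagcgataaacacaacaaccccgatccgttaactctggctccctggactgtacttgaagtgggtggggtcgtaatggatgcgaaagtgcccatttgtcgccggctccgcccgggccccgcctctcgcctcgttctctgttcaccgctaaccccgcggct

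Whether related genes changed unequally was tested on the difference of their log2 values on the same array, for 7 pairs, with exact two-sided permutation p adjusted over the 7. For 4 pairs the inflamed and control arrays did not overlap. Each had exact p = 0.0179, the lowest possible, and adjusted p = 0.0312. Tmem173 minus Mavs was 0.68 ± 0.17 on inflamed arrays (SD, n = 3) and -2.29 ± 0.26 on control arrays (SD, n = 5), a shift of 2.98. Tmem173 and Mavs each separated the groups, in opposite directions, so the separation of their difference was fixed in advance and adds no further evidence. Ifnar2 minus Ifnar1 was -0.69 ± 0.24 on inflamed arrays and -1.43 ± 0.08 on control arrays, a shift of 0.75. The ranges of Ifnar2 and Ifnar1 in each group also left no room for their differences to overlap, so this p-value adds no further evidence either. As a description, Tmem173 and Ifnar2 were higher in inflamed colon relative to their partners on the same array.

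Irf7 minus Irf3 was 1.06 ± 0.43 on inflamed arrays and 2.48 ± 0.25 on control arrays, a shift of -1.42, and Irf7 minus Irf9 shifted by -1.10. Relative to both other factors, Irf7 was thus lower in inflamed colon. The ranges of the single genes again left no room for overlap, so both p-values repeat the separation of Irf7 and add no further evidence. Ifih1 minus Ddx58 was 1.77 ± 0.08 on inflamed arrays and 1.77 ± 0.16 on control arrays (exact p = 1.0), with overlapping groups. Dhx58 minus Ddx58 shifted by -0.37 (exact p = 0.0357, adjusted p = 0.05) and Dhx58 minus Ifih1 by -0.37 (exact p = 0.214, adjusted p = 0.25), neither of which passed. With 1 array left out fewer permutations are possible, which raises the lowest p that the test can give. The 4 calls then ended without any 1 array except control replicate 1 (adjusted p = 0.0667 to 0.0833 without an inflamed array and 0.05 without control replicate 2, 3, 4 or 5), and the shifts kept their sign. Dhx58 minus Ddx58 passed without control replicate 1 (adjusted p = 0.04).

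**Figure D3:**
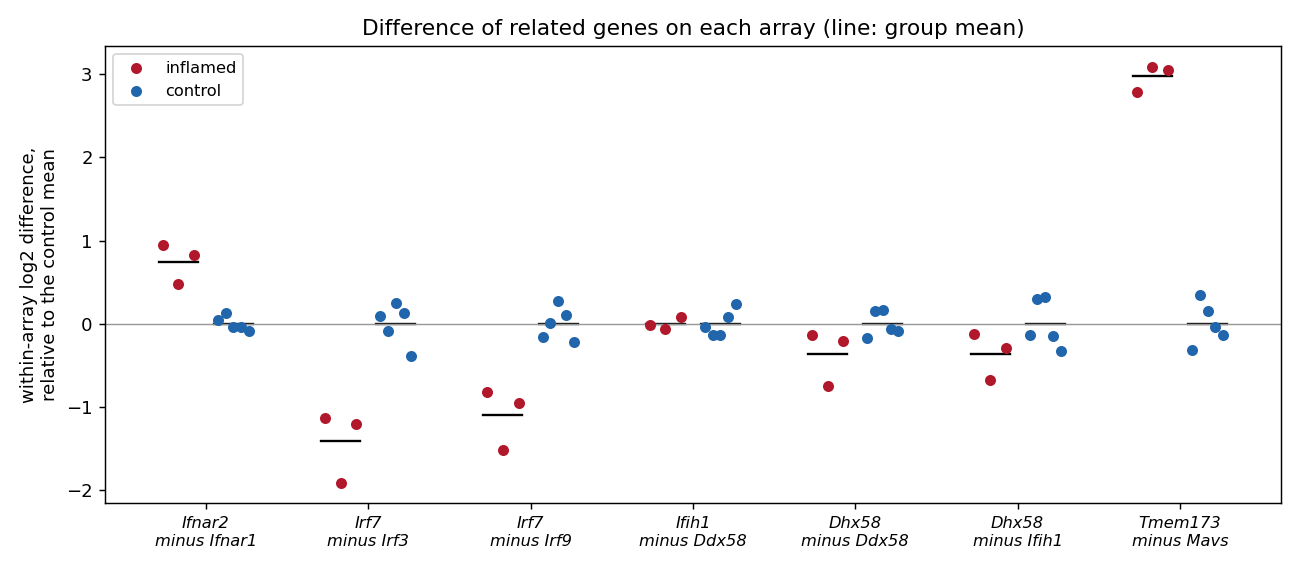
Within-array difference of each pair of related genes (vertical axis, log2, relative to the control mean of that pair) on the 3 inflamed arrays (red, left in each pair) and the 5 control arrays (blue, right), with a line at the group mean. Tmem173 minus Mavs stands 2.98 above its control mean in inflamed colon, and the points of the 3 sensor pairs overlap between groups.

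The genes that followed the members most closely over the 8 arrays, among 19567 genes above the dim limit in either group, differed between members. These correlations are descriptive, since the arrays form 2 groups that 9 of the 10 members separate. The closest to Dhx58 were Ifi27l2a (r = 0.997), Oas1b (r = 0.993) and Oas2 (r = 0.987), all interferon-stimulated genes. Ddx58 was closest to Snx7 (r = 0.987), Ifit3 (r = 0.985) and Gm24400 (r = 0.969), and Ifih1 to Ifit1bl2 (r = 0.983), Specc1l (r = 0.981) and Dnm2 (r = 0.981). For Irf7 they were Apol9a (r = 0.99), Neurl1b (r = 0.988) and Vav2 (r = 0.987). Between members, Irf7 and Dhx58 had r = 0.98, and r = 0.84 for their deviations from the group means, while Ddx58 and Ifih1 had r = 0.93 and 0.76.

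Tmem173 was closest to Tpm4 (r = 0.995), Anxa5 (r = 0.993) and Metap2 (r = 0.992), and Ifnar2 to Nckap1l (r = 0.997), Hk2 (r = 0.994) and Il18rap (r = 0.993). Nckap1l, an actin regulator of blood cells, and Il18rap, an interleukin-18 receptor chain of lymphocytes, had differences of 1.90 (adjusted p = 0.000194) and 1.75 (adjusted p = 0.000729). Ifnar1 was closest to Sytl5 (r = 0.987), Malt1 (r = 0.981) and Atp6v1d (r = 0.977), Mavs to Siae (r = 0.994), Letmd1 (r = 0.992) and Rnf212 (r = 0.992), Irf9 to Phgr1 (r = 0.973), Yipf3 (r = 0.962) and Dcaf4 (r = 0.962), and Irf3 to Afg3l2 (r = 0.989), Tmem18 (r = 0.987) and Ei24 (r = 0.978).

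Beyond the 10 genes, 9 lists of the same pathways were read for counts. Transcripts of the interferons themselves did not differ detectably. Of 18 measured type I and type III interferon genes, 0 passed the limma test. Without adjustment 2 had p under 0.05. Of the 18, 12 lay under the dim limit in both groups. The 2 with the largest differences were Ifna1 (-0.23 ± 0.11, adjusted p = 0.219) and Ifna14 (-0.18 ± 0.11, adjusted p = 0.334). Ifnb1, named after its values were seen, was at 4.08, 3.98 and 4.12 on inflamed arrays and at 3.96 to 4.14 on control arrays, all under the dim limit. Probes of the near-identical interferon-alpha genes can share signal. Without inflamed replicate 1, 1 gene of the list passed upward, and without inflamed replicate 3, 1 passed downward.

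Of 28 measured antiviral genes that type I interferon induces, 14 fell, 0 rose and 14 did not pass, with a list median of -0.64, where 5.04% of all named genes fell. Of the 28, 4 had differences above 0, the highest that of Ifit2 (0.94 ± 0.37, adjusted p = 0.15), named after its values were seen. Oas2, an activator of the RNase that degrades viral RNA, fell by 2.42 ± 0.28 (adjusted p = 0.00222), the helicase-like gene Ddx60 fell by 2.13 ± 0.27 (adjusted p = 0.00323) and Ifit1, which binds viral RNA ends, fell by 1.75 ± 0.27 (adjusted p = 0.00689). Of 19 measured genes of the interferon-gamma list 18 rose and 0 fell, with a median of 1.77, where 8.06% of all named genes rose, led by Cxcl9, Nos2 and Ido1. The difference of Cxcl9, a T cell chemokine gene, was 5.53 ± 0.45 (adjusted p = 0.000637). Those of Nos2, whose enzyme makes nitric oxide, and Ido1, whose enzyme breaks down tryptophan, were 4.33 ± 0.45 (adjusted p = 0.0015) and 4.33 ± 0.50 (adjusted p = 0.00225). Both lists hold genes whose direction in these arrays was known when they were chosen.

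**Figure D4:**
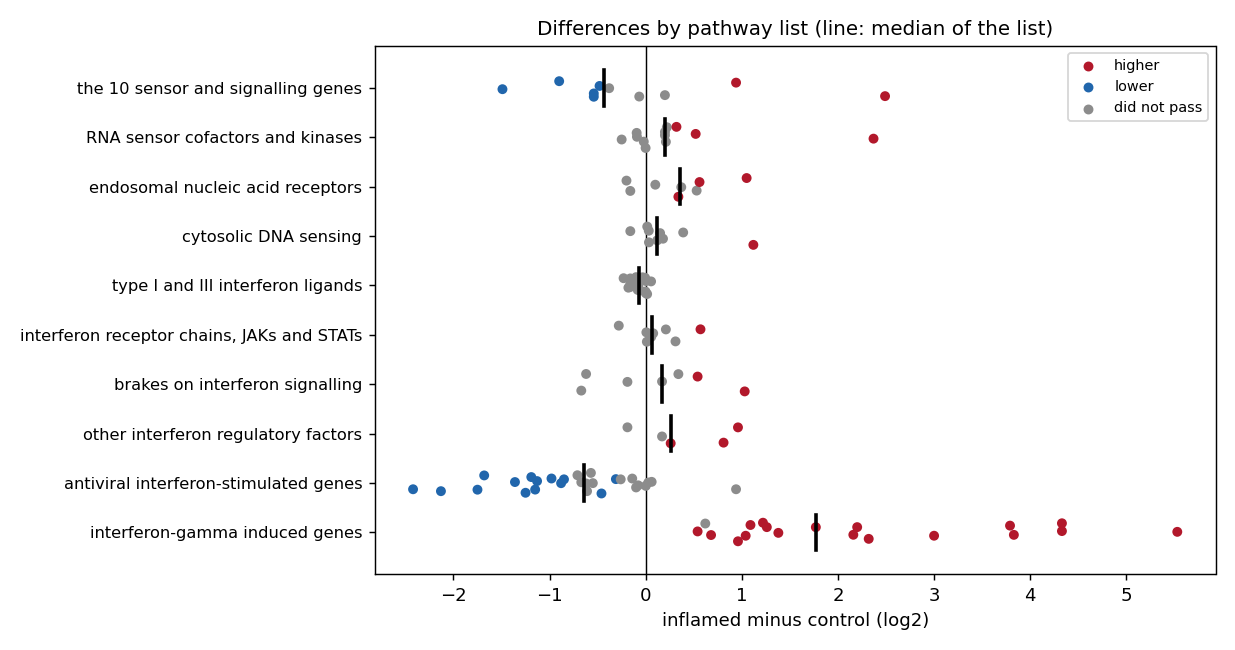
Difference of each measured gene (horizontal axis, inflamed minus control, log2) by list, with the 10 genes in the top line, red for higher, blue for lower and grey for not passing the test, and a black line at the list median. Medians run from -0.64 for the antiviral genes to 1.77 for the interferon-gamma list, and no interferon ligand is coloured.

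The remaining lists, of partners of the sensors and receptors, had 1 to 3 higher genes each and 0 lower, to be read against 8.06% higher and 5.04% lower among all named genes. In the lists of cofactors and kinases, of brakes and of other interferon regulatory factors, 1 gene each passed downward without inflamed replicate 2 and with quantile normalization. Some lists share genes, so their counts are not independent. Irf2 is in the lists of brakes and of other interferon regulatory factors. Irf1 and Socs1 are also in the interferon-gamma list, and Isg15 and Usp18 are in the lists of brakes and of antiviral genes. Of 12 measured cofactors and kinases of RNA sensing 3 rose and 0 fell. Rnf125, a ubiquitin ligase that marks RIG-I for degradation, was at 9.24, 8.96 and 9.64 on inflamed arrays and at 6.50 to 7.53 on control arrays, a rise of 2.37 ± 0.26 (adjusted p = 0.00184). Tank, a scaffold of the kinase TBK1, rose by 0.52 ± 0.12 (adjusted p = 0.0361), and Tomm70a, a mitochondrial import receptor that contacts MAVS, by 0.32 ± 0.069 (adjusted p = 0.0237). The Tank call ended without any 1 array except inflamed replicate 3, and that of Tomm70a without inflamed replicate 1 or 2 or control replicate 2, 3, 4 or 5. Only Rnf125 then rose without inflamed replicate 1 or 2 or control replicate 2, 3, 4 or 5, and without inflamed replicate 2 another gene of the list passed downward.

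Of 8 measured receptors and signalling genes of endosomal RNA and DNA sensing 3 rose and 0 fell. The kinase adaptor Traf6 rose by 0.56 ± 0.093 (adjusted p = 0.00894), the Toll-like receptor adaptor Myd88 by 0.34 ± 0.089 (adjusted p = 0.0466) and the RNA receptor gene Tlr8 by 1.05 ± 0.22 (adjusted p = 0.0203). Tlr8 was dim, at 4.48, 5.49 and 5.15 on inflamed arrays and at 3.82 to 4.17 on control arrays, so that inflamed replicate 1 and all controls lay under the dim limit, and with the floor on low values its difference was 0.0. The Myd88 call ended without any 1 array except control replicate 1 or 5, and only 1 gene of the list passed without inflamed replicate 3 or control replicate 2 or 4. Among 9 measured genes of cytosolic DNA sensing, the list around STING, 1 rose and 0 fell, a share near that of all named genes. That gene was Samhd1, which hydrolyses the building blocks of DNA and restrains cGAS signalling, at 10.47, 10.13 and 10.73 on inflamed arrays and 9.05 to 9.64 on control arrays, a rise of 1.12 ± 0.17 (adjusted p = 0.00605).

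Of 8 measured receptor chains, Janus kinases and STATs, only Jak2, the kinase of the interferon-gamma receptor, rose, by 0.57 ± 0.11 (adjusted p = 0.015), a call that ended without inflamed replicate 1 (adjusted p = 0.052). This share too is near that of all named genes, and 3 genes of the list passed upward with dim genes left out. Of 7 measured brakes on the pathway 2 rose, the feedback inhibitors Socs3 by 1.03 ± 0.22 (adjusted p = 0.0254) and Socs1 by 0.54 ± 0.13 (adjusted p = 0.0384). Neither passed without inflamed replicate 1 or control replicate 2, 3, 4 or 5, and Socs1 also missed the threshold without inflamed replicate 3 or control replicate 1. Of 5 other measured interferon regulatory factors 3 rose and 0 fell. Irf1, an interferon-gamma response factor, rose by 0.96 ± 0.15 (adjusted p = 0.00722), Irf8, a factor of myeloid cells, by 0.81 ± 0.17 (adjusted p = 0.0241) and Irf4, a factor of activated lymphocytes, by 0.26 ± 0.062 (adjusted p = 0.0318). With the mean over its probe sets in place of the brightest, the Irf1 difference was 0.54 and did not pass (adjusted p = 0.0507). Only Irf1 passed without inflamed replicate 1 or 3 or control replicate 3, 4 or 5, and the Irf4 values, 4.65 to 4.92 on inflamed arrays and 4.47 to 4.59 on control arrays, lay at or under the dim limit on all arrays but 1.

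Markers of several cell types moved with the groups, and in whole tissue fewer cells of a type and less RNA per cell cannot be told apart. Of 10 measured monocyte and macrophage markers 9 rose, with a summed linear intensity of 7250 to 9560 on inflamed arrays and 1210 to 1400 on control arrays. Of 10 measured T cell markers 9 rose (993 to 1990 on inflamed arrays and 457 to 500 on control arrays) and of 10 neutrophil markers 4 rose (3260 to 8980 on inflamed arrays and 466 to 1800 on control arrays). Ly6g gave 48.6% of the neutrophil sum, which without it was 1250 to 6670 on inflamed arrays and 254 to 286 on control arrays. Of 7 smooth muscle and stromal markers 5 fell (9240 to 10200 on inflamed arrays and 13000 to 18400 on control arrays). Of 12 epithelial markers 4 fell and 1 rose, with sums of 44500 to 50400 on inflamed arrays and 46900 to 50200 on control arrays. Their part in the differences of the 10 genes was not tested.

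Of 6 endothelial markers 0 passed the limma test, with 1 at p under 0.05 before adjustment (323 to 373 on inflamed arrays and 329 to 351 on control arrays). Of 7 B and plasma cell markers 1 fell (189 to 196 on inflamed arrays and 201 to 210 on control arrays), with Ms4a1 and Jchain under the dim limit on every array. Of 7 markers listed for plasmacytoid dendritic cells, a main source of type I interferon, 1 rose and 2 fell. Klk1, the tissue kallikrein gene, gave 94.3% of that summed intensity. Without it the sum was 452 to 496 on inflamed arrays and 422 to 457 on control arrays. The defining marker Siglech was at 5.02 to 5.03 on inflamed arrays and 4.98 to 5.03 on control arrays, close to the dim limit, and Ccr9 was under it throughout.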

How the data were processed

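Affymetrix whole-transcript arrays were hybridised with biotin-labelled targets, per the labels' protocols. The submitters' processing notes name Affymetrix Expression Console and RMA, without roles or order, for the deposited values. That these are log2 intensities was read from the range of the deposited numbers. No version, setting, array model or genome build is stated there.

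Of 72688 probe sets, 65956 were transcript clusters. Symbols came from the array annotation, updated through RefSeq's gene table (GRCm38.p6) for 1152 probe sets. The 31258 probe sets of 1 gene gave 30702 genes, with the brightest probe set for the 441 genes that had several, and 1492 annotated probe sets with several genes were left unnamed. Log2 values were compared between 3 inflamed and 5 control arrays with limma 3.58.1 (lmFit, eBayes, no covariate) in R 4.3.3. The labels call the replicates biological without naming mice, so p-values measure the spread between these samples. The script was tested on simulated data. The members and gene lists were chosen with earlier results of these data known. Of 120 listed pathway genes 109 had a named probe set. Those named are, per list, the 3 largest differences past the threshold (or the 2 largest if none passed), and per member the 3 genes with the highest Pearson correlation. Alternatives were other scalings, a floor, a filter on dim genes, the mean over probe sets, other variance models, blocks and leaving out each array. The number of arrays limits the precision, and depth does not apply.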

Additional observations from a re-analysis of the deposited data

Results flagged for a closer look

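Of 31 genes named in the text and checked for a control array far from the other 4, 2 stood out, about what a rule with 1 chance in 20 per group gives. Irf1 was at 8.80 on control replicate 5 and at 9.12 to 9.25 on the other controls, so the gap made up 0.72 of the control range. Tomm70a was at 9.15 on control replicate 1 and at 9.01 to 9.05 on the others, also with 0.72 of the range. None of the 10 sensor and signalling genes was among them.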

How the results depend on the processing

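Tmem173, Ifnar2, Irf7 and Dhx58 kept their direction and their call in 16 of 17 alternatives each, and Ddx58 in 9, Mavs in 8 and Ifih1 in 6. Irf9 passed in 3 alternatives and Ifnar1 in 2, and Irf3 in 0 (adjusted p = 0.094 to 0.686). The count of lower genes among the 10 was 3 with arrays centred on their medians, 2 with a floor of 5.68 on low values and 2 to 5 with 1 array left out. The floor took the count over all genes to 2329, and leaving out 1 array gave 2510 (inflamed replicate 1) to 4573 (inflamed replicate 2). With 1 array left out, 0 to 5 of the 7 pairs passed (5 without control replicate 1, 0 without any other), and Ifih1 minus Ddx58 ranged from -0.0416 to 0.0605. The lowest possible permutation p is then higher, so these lost pair calls do not show dependence on a single array. With the replicate block, which leaves few degrees of freedom among the 8 arrays, 0 genes passed over the whole table (4918 at an unadjusted p under 0.05), so 0 members were higher, 0 lower and 0 pathway genes called. The block gave differences of 2.34 for Tmem173 (adjusted p = 0.0693) and -1.61 for Irf7 (adjusted p = 0.0868). Deviations from the group means of arrays with the same number had correlations of -0.285, -0.0525 and 0.0687. So few values cannot tell whether the numbers pair the arrays, and the labels do not say. The cause of these changes was not tested.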
